A study of Mus musculus with 14 samples.

Results

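The transcripts of 36 genes of the autophagy, mitophagy and ER-phagy machinery were measured in pressure-overloaded and sham-operated mouse ventricles that had received a gene therapy vector or its control. The genes were chosen by name, as known autophagosome, cargo receptor, mitophagy and ER-phagy genes, after earlier results of these data had been seen. All 36 were found among the 24972 genes of the table, and all 36 passed the filter on low values with 13191 genes in all. The animals were male C57BL/6N mice. At 9 to 10 weeks of age they had transverse aortic constriction (TAC), a band around the aorta that makes the left ventricle pump against raised pressure, or sham surgery. At 2 weeks after surgery, 30 TAC mice with an ejection fraction of 40 to 60% and 10 sham mice with normal function were selected by echocardiography. Each was injected through the tail vein with 1e12 viral genomes, in 100 ul, of AAV2/9 that carried either JP2NT or GFP. JP2NT is the N-terminal part of junctophilin-2, a protein that holds the T-tubule and the sarcoplasmic reticulum of cardiomyocytes together, and GFP is the control insert. The promoter that drives the inserts is not given in the sources used here. Ventricles were collected 8 weeks after surgery, so every group, shams included, carries a virus, and treatment began after the dysfunction.

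The 4 groups were TAC+JP2NT with 4 libraries, TAC+GFP with 4, Sham+JP2NT with 3 and Sham+GFP with 3. Sham+JP2NT replicates 1 and 2 were almost as alike as 2 counts of the same library would be and were treated as 1 sample, which leaves 13 samples. Depth was about 8642361 to 14444973 reads per library. On the first principal component of all genes, which held 50.2% of the variance, TAC+JP2NT replicate 4 lay at -5.5, the other 3 TAC+JP2NT samples at 20.1 to 24.1, the TAC+GFP samples at 32.1 to 42.9 and the shams at -42 to -38.8. Calls lost without TAC+JP2NT replicate 4 are therefore named, and for some genes values are also given without it. All other values include it. Jph2 itself, whose N-terminus the vector carries, averaged 6299.7 ± 321 in TAC+JP2NT hearts and 6129 ± 328 in TAC+GFP hearts (SD, n = 4 each), so its value does not mark the vector; whether reads of the insert were counted as Jph2 is not given in the sources used here. All 10 cardiomyocyte markers were present. Their summed level was 857300 to 1033000 in TAC+JP2NT hearts and 782500 to 909900 in TAC+GFP hearts, against 1245000 to 1260000 in Sham+JP2NT hearts and 1256000 to 1298000 in Sham+GFP hearts. A lower level in TAC hearts can come from fewer cells of a type or from less RNA per cell, and these cannot be told apart in bulk tissue. Values below are normalised values, that is deposited counts scaled jointly over all samples. They are not divided by transcript length, so they compare samples of 1 gene and not genes with each other. Samples are listed in the order of replicate number, and the first Sham+JP2NT value is the mean of replicates 1 and 2. Where Sham+JP2NT replicate 3 is left out, that group is 1 sample and the other groups give the spread.

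Macroautophagy wraps cell contents in a double membrane and delivers them to the lysosome. The ULK kinase complex starts the process, a class III PI3-kinase complex marks the site with the lipid PI3P, and lipid-carrying and PI3P-binding proteins enlarge the membrane. A conjugation system then attaches ATG8 proteins to the membrane, where cargo receptors bind them and bring in protein aggregates, mitochondria (mitophagy) or endoplasmic reticulum (ER-phagy). Cardiomyocytes are long-lived and rich in mitochondria, and they depend on this turnover. Transcript levels do not measure the flow of cargo to lysosomes.

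Overload was accompanied by shifts in both directions within the same machinery. In TAC+GFP against Sham+GFP hearts, 25 of the 36 genes were called at an adjusted p under 0.05, and 12 rose and 13 fell. Of all 13191 genes tested, 48.3% were called in this comparison, 23.0% as higher and 25.2% as lower. In TAC+JP2NT against Sham+JP2NT hearts, 21 genes were called, of which 6 rose and 15 fell, beside 32.2% of all genes, 15.4% higher and 16.8% lower. The larger shares of the 36 do not come with larger changes. Their median absolute log2 fold change was 0.252 under JP2NT and 0.297 under GFP, beside 0.275 and 0.332 for all genes. Their values also varied less between samples of a group, with a median SD on the log2 scale of 0.124 in TAC+JP2NT hearts and 0.0928 in TAC+GFP hearts, beside 0.177 and 0.158 for all genes. The part of this lower spread in the share called was not tested.

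Some cell type markers were called with overload as well, beside 32.2% of all genes under JP2NT and 48.3% under GFP. None of those listed here was at 0 in all samples. Of 9 macrophage markers 0 were called under JP2NT, and 1 was higher and 1 lower under GFP. Of 7 lymphocyte markers 2 were tested and 0 were called under either vector. Of 10 cardiomyocyte markers 1 was higher and 4 were lower under JP2NT, and 1 was higher and 5 were lower under GFP. Of 8 fibroblast markers 1 was higher under JP2NT and 5 were higher under GFP, and their sum was 15280 to 20840 in TAC+JP2NT hearts and 17220 to 25900 in TAC+GFP hearts, against 14010 to 14040 in Sham+JP2NT hearts and 13700 to 13820 in Sham+GFP hearts. Of 8 pericyte and smooth muscle markers 4 were lower under JP2NT and 5 were lower under GFP, with sums of 12790 to 14840 in TAC+JP2NT hearts and 9595 to 11900 in TAC+GFP hearts, against 16680 to 17420 in Sham+JP2NT hearts and 16330 to 17000 in Sham+GFP hearts. Of 8 endothelial markers 5 were lower under JP2NT, and 4 were lower and 1 higher under GFP. Their sum was 11200 to 12390 in TAC+JP2NT hearts and 11760 to 13440 in TAC+GFP hearts, against 14170 to 14500 in Sham+JP2NT hearts and 14350 to 14600 in Sham+GFP hearts. Of 3 atrial markers 0 were called in any comparison, but their sum was uneven. It was 991 to 10210 in TAC+JP2NT hearts and 1312 to 4896 in TAC+GFP hearts. In Sham+JP2NT hearts it was 3624 to 5957 and in Sham+GFP hearts 418 to 3242, so these sham ranges did not overlap. The part of these shifts and of the uneven atrial level in the results for the 36 genes was not tested.

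The 2 overload comparisons share no samples, and 30 of the 36 genes had the same sign of change in both, beside 80.9% of all genes. Rb1cc1, Wipi1, Atg5, Bnip3 and Bnip3l rose under both vectors, and 11 genes fell under both: Pik3c3, Atg14, Atg9a, Atg2a, Wipi2, Atg7, Map1lc3a, Nbr1, Calcoco1, Pink1 and Tfeb. Of all genes 26.8% were called in the same direction under both, 12.7% as higher and the rest as lower. Retreg1 rose under GFP and fell under JP2NT. A further 6 genes were called as higher under GFP alone (Atg13, Atg101, Becn1, Gabarapl1, Gabarapl2 and Tax1bp1), 2 as lower under GFP alone (Atg4d and Tfe3), 1 as higher under JP2NT alone (Atg12) and 3 as lower under JP2NT alone (Ulk1, Gabarap and Sqstm1). The remaining 7 were called under neither vector: Ulk2, Atg3, Atg4b, Atg16l1, Map1lc3b, Optn and Fundc1. The median log2 fold change of the 36 was -0.17 under JP2NT and -0.01 under GFP, and for all genes it was -0.01 under both. The fold change was lower under JP2NT than under GFP in 25 genes and higher in 11, beside 6504 lower and 6687 higher of all 13191 genes. The genes were measured in the same samples, so they are not independent counts. A call under 1 vector and not the other does not show that the responses differ. That difference was tested as an interaction, in which Retreg1 was the 1 gene of the 36 called, beside 0.0758% of all genes.

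**Figure D1:**
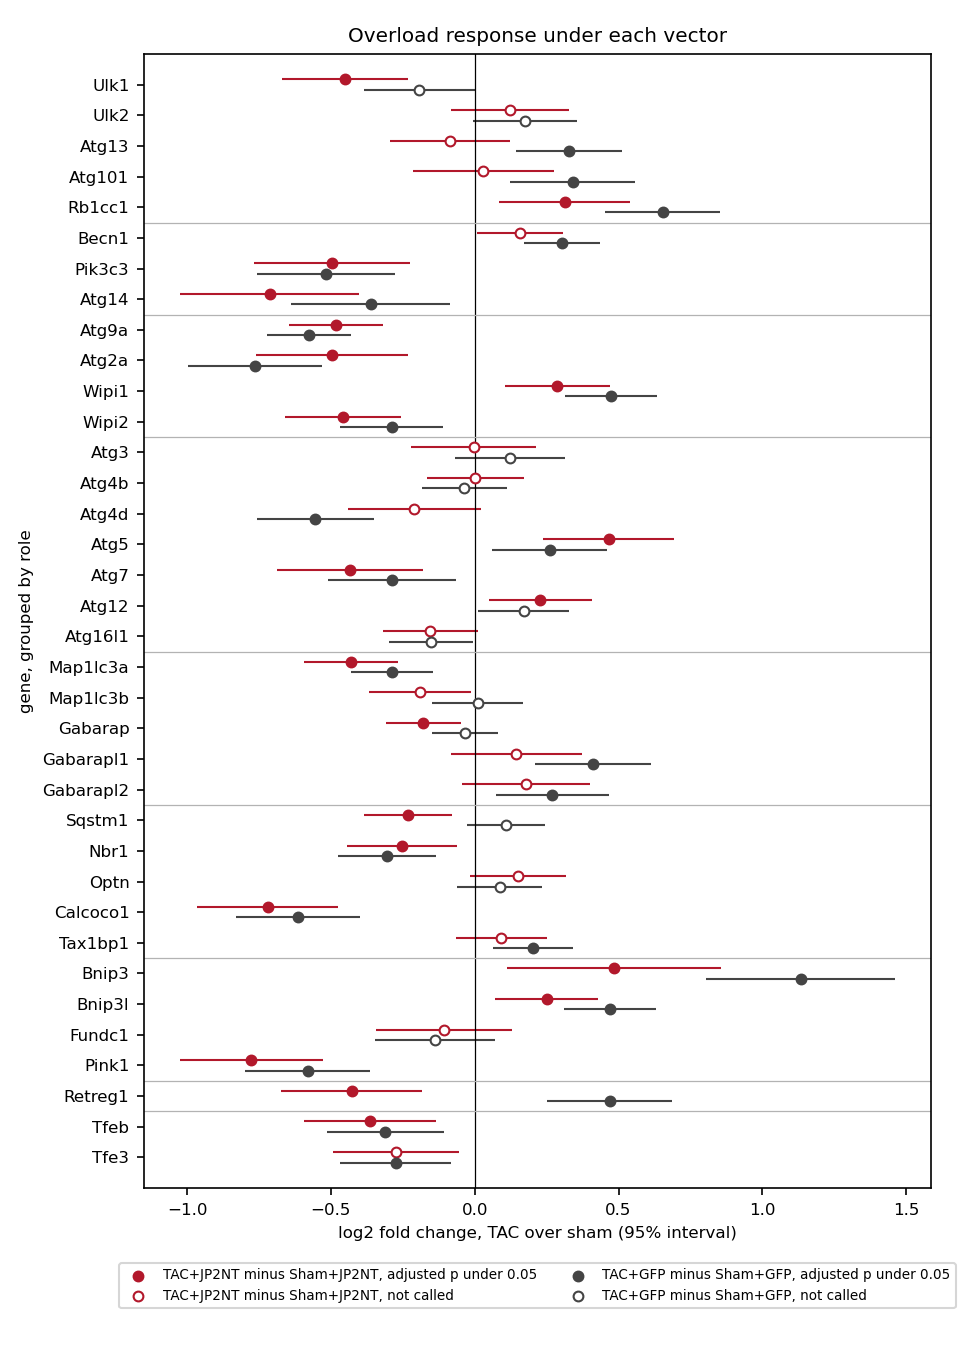
Log2 fold change of each of the 36 genes in TAC over sham hearts, with its 95% interval, under JP2NT (red, 4 TAC and 2 sham samples) and under GFP (grey, 4 TAC and 3 sham samples); filled points have an adjusted p under 0.05. Genes are grouped by role from the ULK complex at the top to the transcription factors at the bottom. Most pairs of points lie on the same side of 0, while the points of Retreg1 lie at -0.43 under JP2NT and 0.47 under GFP.

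In the hearts under overload, TAC+JP2NT against TAC+GFP, 6 of the 36 genes were called and all 6 were lower with JP2NT: Retreg1, Bnip3, Atg13, Atg101, Wipi1 and Sqstm1. Of all genes tested 6.21% were called, 2.71% as higher and 3.50% as lower. The TAC+JP2NT and TAC+GFP samples did not overlap for any of these 6, nor for Becn1, Atg4b and Gabarap, which makes 9 genes lower without overlap; 5.51% of all genes were lower without overlap, and 10.6% did not overlap in either direction. The median log2 fold change of the 36 was -0.09, beside -0.003 for all genes. Without TAC+JP2NT replicate 4, 5 of the 6 were called and Wipi1 was not (adjusted p = 0.0572), beside 709 of all genes called. In a fit of the TAC samples alone, 1 gene of the 36 was called, Retreg1, beside 172 of all genes. Of the 36, 3 were called without TAC+GFP replicate 1, without TAC+GFP replicate 2 or without TAC+JP2NT replicate 2. In the same order, 372, 268 and 448 of all genes were called. Some markers of 4 cell types were called in this comparison, beside 6.21% of all genes. Of the macrophage, lymphocyte, erythroid and atrial markers 0 were called. Median log2 fold changes were 0.34 for pericyte and smooth muscle, -0.08 for endothelial, 0.003 for fibroblast and 0.07 for cardiomyocyte markers. Of the pericyte and smooth muscle markers 2 of 8 were called higher, and the ranges of their sums, given above, did not overlap between the TAC groups. Of the endothelial markers 2 of 8 were called lower, of the fibroblast markers 1 of 8 was called lower and of the cardiomyocyte markers 1 of 10 was called higher, and for these 3 types the ranges of the sums overlapped. Their part in the result was not tested. In the sham hearts, Sham+JP2NT against Sham+GFP, 0 of the 36 genes and 0 of all genes (0%) were called by limma. At an unadjusted p under 0.05 there were 1 of the 36, Rb1cc1, and 4.25% of all genes.

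**Figure D2:**
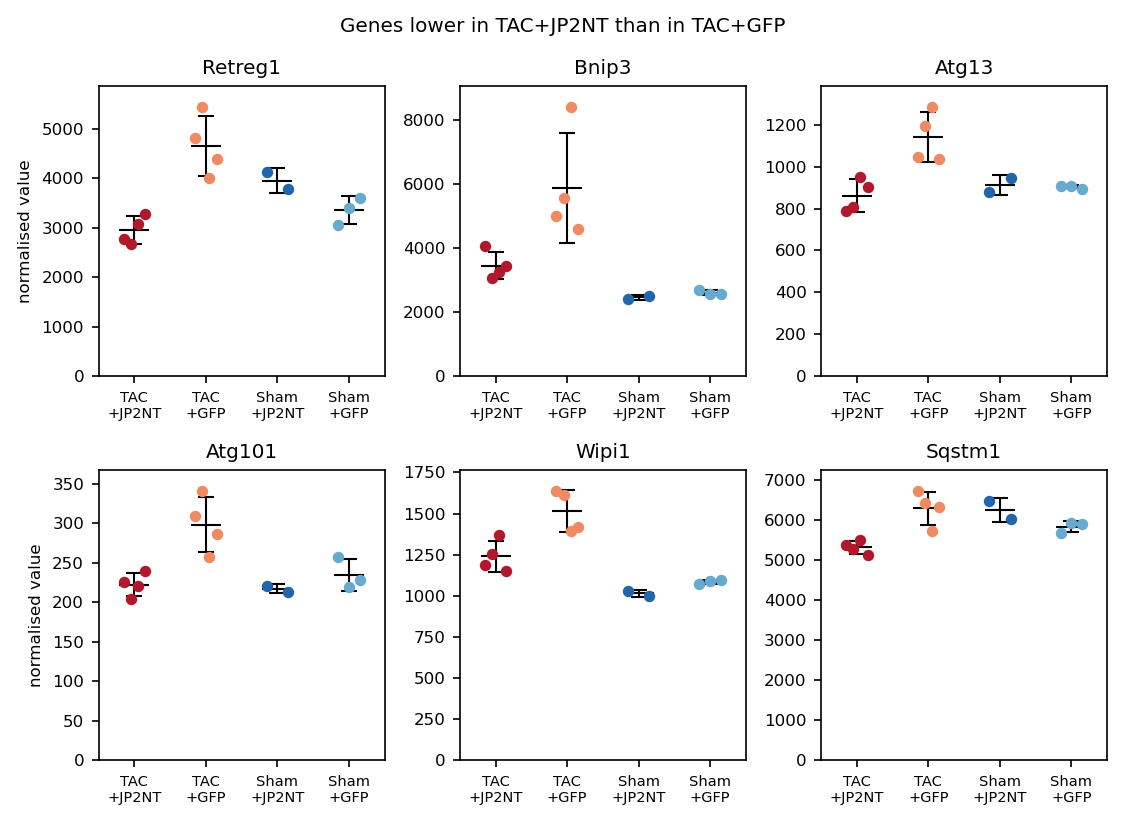
Normalised values of Retreg1, Bnip3, Atg13, Atg101, Wipi1 and Sqstm1, the genes called lower in TAC+JP2NT hearts than in TAC+GFP hearts, in each sample (points) with the group mean and SD (bars; n = 4, 4, 2 and 3). In every panel the TAC+GFP points lie above all TAC+JP2NT points, and in the Bnip3 and Wipi1 panels the TAC+JP2NT points lie in turn above all sham points.

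In the ULK complex, Atg13, Atg101 and Rb1cc1 rose in TAC+GFP hearts, and Rb1cc1 rose and Ulk1 fell in TAC+JP2NT hearts, each against the sham hearts of its own vector. Rb1cc1, the large scaffold of the complex, had normalised values of 799, 831, 738 and 622 in TAC+JP2NT hearts and 727, 789.9, 752 and 829.6 in TAC+GFP hearts, against 598 and 598 in Sham+JP2NT hearts and 484, 458 and 535 in Sham+GFP hearts. Every TAC value lay above every sham value. The log2 fold change was larger under GFP (0.65, SE 0.09, adjusted p = 6.07e-05) than under JP2NT (0.31, SE 0.11, adjusted p = 0.036). The difference between these responses was -0.34 with an adjusted p of 0.385, and both Sham+JP2NT values were above all Sham+GFP values. Without TAC+JP2NT replicate 4 the log2 fold change under JP2NT was 0.41 (adjusted p = 0.00224) and the difference was -0.25 (adjusted p = 0.383). The call under JP2NT was lost without TAC+JP2NT replicate 1 or 2 or Sham+JP2NT replicate 3, with replicates 1 and 2 of each TAC group averaged and in a fit of the compared groups alone (adjusted p = 0.0822 to 0.14).

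Atg13, which links the kinases to the scaffold, had values of 789, 806, 949.9 and 905 in TAC+JP2NT hearts and 1048, 1195, 1283 and 1036 in TAC+GFP hearts, against 879 and 947 in Sham+JP2NT hearts and 910.2, 908 and 895 in Sham+GFP hearts. The TAC+GFP hearts stood above all others, while of the TAC+JP2NT hearts replicates 1 and 2 lay below every sham, replicate 3 just above the highest sham and replicate 4 among the shams. Against TAC+GFP hearts, Atg13 was 1.32-fold lower in TAC+JP2NT hearts (log2 fold change -0.40, SE 0.08, adjusted p = 0.0107), and the overload rise under GFP was 0.33 with an adjusted p of 0.00582. Atg101, the partner that stabilises Atg13, had values of 226, 203, 220.3 and 239 in TAC+JP2NT hearts and 309, 339.9, 257 and 286 in TAC+GFP hearts, against 221 and 213 in Sham+JP2NT hearts and 257, 219 and 227 in Sham+GFP hearts. All TAC+GFP values exceeded all TAC+JP2NT values, but Sham+GFP replicate 1 lay within the TAC+GFP range. The log2 fold change was -0.42 in TAC+JP2NT against TAC+GFP hearts (adjusted p = 0.0202) and 0.34 in TAC+GFP against Sham+GFP hearts (adjusted p = 0.0123). The overload call was lost without Sham+GFP replicate 2 (adjusted p = 0.058). Between the TAC groups the call of Atg13 was lost with replicates 1 and 2 of each TAC group averaged and in a fit of the compared groups alone (adjusted p = 0.0601 to 0.065), and that of Atg101 without TAC+JP2NT replicate 2 or TAC+GFP replicate 1 or 2, with replicates 1 and 2 of each TAC group averaged and in a fit of the compared groups alone (adjusted p = 0.058 to 0.115).

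Ulk1, the main starting kinase, went the other way, with values of 1188, 1281, 1619 and 1556 in TAC+JP2NT hearts and 1558, 1552, 1514 and 1469 in TAC+GFP hearts, against 1971 and 1859.9 in Sham+JP2NT hearts and 1714, 1748 and 1761 in Sham+GFP hearts. TAC values were below sham values under each vector. The fall was called under JP2NT (-0.45, SE 0.10, adjusted p = 0.00459) and missed the threshold under GFP (-0.19, 95% interval -0.39 to 0.00, adjusted p = 0.0922). Ulk2, its close relative, spanned 1039 to 1361 in TAC+JP2NT hearts and 1106 to 1254 in TAC+GFP hearts, against 1037 to 1089 in Sham+JP2NT and 1009.7 to 1102 in Sham+GFP hearts, and was called in no comparison.

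The class III PI3-kinase complex split between its subunits. Pik3c3, the lipid kinase itself, had values of 224, 229, 298 and 307 in TAC+JP2NT hearts and 245, 257, 251 and 265 in TAC+GFP hearts, against 404 and 338 in Sham+JP2NT hearts and 358, 366 and 369 in Sham+GFP hearts. All 8 TAC values were below all 5 sham values, and the fall was -0.50 on the log2 scale under JP2NT (adjusted p = 0.00902) and -0.52 under GFP (adjusted p = 0.00165). Atg14, the subunit that brings the complex to the endoplasmic reticulum, had values of 135, 146, 166 and 142 in TAC+JP2NT hearts and 171, 144, 149.9 and 184 in TAC+GFP hearts, against 257 and 226 in Sham+JP2NT hearts and 225, 169 and 234 in Sham+GFP hearts. The TAC+JP2NT values were below every sham value, while the lowest Sham+GFP value, replicate 2, fell within the TAC+GFP range. The log2 fold change was -0.71, SE 0.15, adjusted p = 0.00247 under JP2NT and -0.36, SE 0.13, adjusted p = 0.0309 under GFP. The call of Atg14 under GFP was lost without TAC+GFP replicate 2 or 3 or Sham+GFP replicate 1 or 3 and with replicates 1 and 2 of each TAC group averaged (adjusted p = 0.0572 to 0.161), and that of Pik3c3 under JP2NT in a fit of the compared groups alone (adjusted p = 0.053). Becn1, the regulatory subunit beclin 1, was higher: it spanned 682 to 764 in TAC+JP2NT hearts and 775 to 816 in TAC+GFP hearts, against 619.7 to 642 in Sham+JP2NT and 621 to 657 in Sham+GFP hearts. It rose under GFP (0.30, SE 0.06, adjusted p = 0.000987), and under JP2NT its log2 fold change was 0.16, 95% interval 0.01 to 0.31, adjusted p = 0.0985.

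All 4 genes of membrane supply and PI3P binding were called under both vectors, 3 as lower and Wipi1 as higher. Beside them, 26.8% of all genes were called in the same direction under both. Atg2a, which carries lipids into the growing membrane, had values of 448, 461, 569.8 and 634 in TAC+JP2NT hearts and 508, 514, 432 and 460.0 in TAC+GFP hearts, against 724 and 750.2 in Sham+JP2NT hearts and 852, 802 and 782 in Sham+GFP hearts. Its TAC values were all below its sham values. It fell by 0.49 on the log2 scale under JP2NT (adjusted p = 0.008) and by 0.76 under GFP (adjusted p = 6.04e-05). The call of Atg2a under JP2NT was lost without Sham+JP2NT replicate 3 (adjusted p = 0.0852). Atg9a, the membrane protein that scrambles those lipids between the leaflets, had values of 1184, 1199, 1267 and 1356 in TAC+JP2NT hearts and 1290.1, 1310.4, 1207 and 1118 in TAC+GFP hearts, against 1757 and 1737 in Sham+JP2NT hearts and 1811, 1861 and 1828 in Sham+GFP hearts. The gap between TAC and sham was again complete, with falls of -0.48 under JP2NT (adjusted p = 0.000472) and -0.58 under GFP (adjusted p = 1.23e-05) on the log2 scale. Wipi2, which reads PI3P and calls in the conjugation system, also fell, by 0.46 under JP2NT (adjusted p = 0.00261) and by 0.29 under GFP (adjusted p = 0.0102) on the log2 scale.

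Wipi1, a PI3P-binding relative of Wipi2, had values of 1188, 1257, 1367 and 1149.9 in TAC+JP2NT hearts and 1634, 1612, 1395 and 1416 in TAC+GFP hearts, against 1030.1 and 998 in Sham+JP2NT hearts and 1072, 1091 and 1095 in Sham+GFP hearts. The groups formed a ladder without overlap, TAC+GFP above TAC+JP2NT above both sham groups. It rose by 0.29 on the log2 scale under JP2NT (adjusted p = 0.0191) and by 0.48 under GFP (adjusted p = 0.000136), and was 1.22-fold lower in TAC+JP2NT hearts than in TAC+GFP hearts (log2 fold change -0.29, SE 0.07, adjusted p = 0.0266). That last call was lost without TAC+JP2NT replicate 1, 2 or 4 or TAC+GFP replicate 1 or 2, with replicates 1 and 2 of each TAC group averaged and in a fit of the compared groups alone (adjusted p = 0.0545 to 0.15), and the rise under JP2NT without Sham+JP2NT replicate 3 (adjusted p = 0.11).

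**Figure D3:**
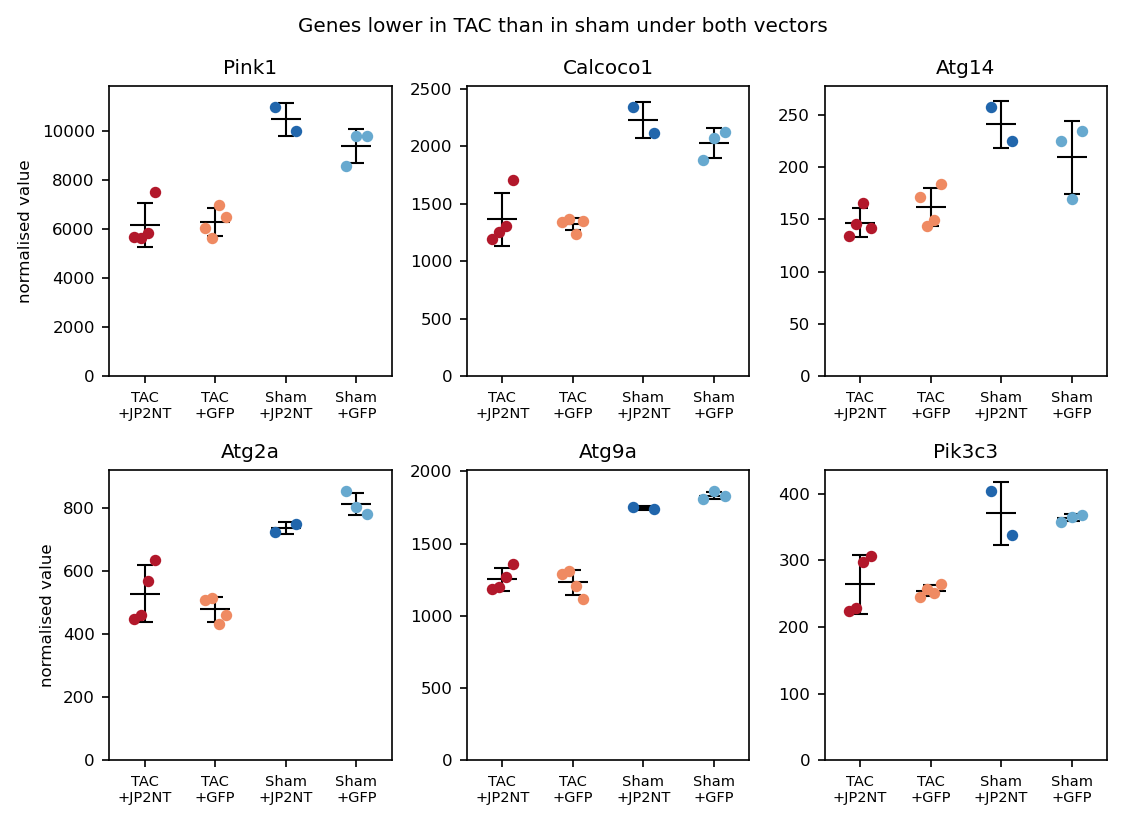
Normalised values of Pink1, Calcoco1, Atg14, Atg2a, Atg9a and Pik3c3 in each sample (points) with the group mean and SD (bars; n = 4, 4, 2 and 3). TAC points lie below all sham points in every panel but that of Atg14, where the lowest Sham+GFP sample lies among the TAC+GFP points; TAC+JP2NT replicate 4 is the highest TAC+JP2NT point for all but Atg14.

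Of the 7 conjugation genes, 3 were called under each vector (42.9%, beside 32.2% of all genes under JP2NT and 48.3% under GFP). Atg5, whose conjugate with Atg12 works as the ligase for ATG8 proteins, had values of 348, 312, 284 and 279 in TAC+JP2NT hearts and 285, 273, 299 and 318 in TAC+GFP hearts, against 206 and 236 in Sham+JP2NT hearts and 241, 255 and 239 in Sham+GFP hearts. TAC exceeded sham in every sample, with a log2 fold change of 0.47, SE 0.11, adjusted p = 0.00474 under JP2NT and 0.26, SE 0.09, adjusted p = 0.0322 under GFP. The call of Atg5 under GFP was lost without TAC+GFP replicate 3 or 4 or Sham+GFP replicate 1, 2 or 3 and with the replicate number as a block (adjusted p = 0.0513 to 0.0891). Atg12 was close to the threshold, with a log2 fold change of 0.23 under JP2NT (adjusted p = 0.0479) and 0.17 under GFP (adjusted p = 0.0696), and its call was lost in 11 of 25 alternatives, at adjusted p-values up to 0.11. Atg4d, one of the proteases that cut ATG8 proteins to and from lipid, had values of 839, 797, 727 and 806 in TAC+JP2NT hearts and 722, 623, 644 and 805 in TAC+GFP hearts, against 862 and 972 in Sham+JP2NT hearts and 1079.5, 1082 and 912 in Sham+GFP hearts. It fell under GFP (-0.55, SE 0.10, adjusted p = 0.000275), and under JP2NT its log2 fold change was -0.21, 95% interval -0.44 to 0.02, adjusted p = 0.153, although TAC and sham did not overlap there either. Atg7, the activating enzyme of both conjugation reactions, fell by 0.43 under JP2NT (adjusted p = 0.0129) and by 0.29 under GFP (adjusted p = 0.0335) on the log2 scale. The Atg7 call under GFP was lost without TAC+GFP replicate 3 or 4 or Sham+GFP replicate 1, 2 or 3 (adjusted p = 0.0627 to 0.098). Atg3, the conjugating enzyme for ATG8 proteins, Atg4b, the main ATG8 protease, and Atg16l1, the membrane-binding partner of the Atg5 conjugate, were called in no comparison. Their overload log2 fold changes were -0.00, 0.00 and -0.15 under JP2NT and 0.12, -0.04 and -0.15 under GFP.

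The ATG8 family, the proteins that coat the autophagosome and dock cargo receptors, moved unevenly. Map1lc3a, one of the LC3 genes, had values of 4518, 4266, 4196 and 5043 in TAC+JP2NT hearts and 5006, 5001, 5014 and 4735 in TAC+GFP hearts, against 6169 and 5938 in Sham+JP2NT hearts and 5865, 6288 and 5939.6 in Sham+GFP hearts. All TAC values were below all sham values, with log2 fold changes of -0.43, SE 0.08, adjusted p = 0.00101 under JP2NT and -0.29, SE 0.07, adjusted p = 0.00273 under GFP. Map1lc3b, the LC3 gene behind the common protein marker of autophagosomes, was called under neither, with log2 fold changes of -0.19, 95% interval -0.37 to -0.01, adjusted p = 0.0955 under JP2NT and 0.01, 95% interval -0.15 to 0.17, adjusted p = 0.922 under GFP. In the GABARAP branch, Gabarapl1 had values of 1451, 1508, 1617 and 1414 in TAC+JP2NT hearts and 1802, 2016, 1513 and 2137 in TAC+GFP hearts, against 1372 and 1334 in Sham+JP2NT hearts and 1397, 1397 and 1383 in Sham+GFP hearts. Its TAC values were above its sham values under both vectors, but TAC+JP2NT replicate 3 exceeded TAC+GFP replicate 3. It rose under GFP (0.41, SE 0.09, adjusted p = 0.00244), and under JP2NT its log2 fold change was 0.14, 95% interval -0.08 to 0.37, adjusted p = 0.326. Its difference between TAC+JP2NT and TAC+GFP hearts just missed the threshold (-0.31, SE 0.09, adjusted p = 0.0509). Gabarapl2 rose under GFP by 0.27 on the log2 scale (adjusted p = 0.0252), and Gabarap fell under JP2NT by 0.18 (adjusted p = 0.0386, or 0.0755 without TAC+JP2NT replicate 4). The Gabarapl2 call was lost without TAC+GFP replicate 2 or Sham+GFP replicate 1 or 2 (adjusted p = 0.0506 to 0.0775), and the Gabarap call in 12 of 25 alternatives, at adjusted p-values up to 0.171. All 5 family members had negative log2 fold changes in TAC+JP2NT against TAC+GFP hearts, -0.31 to -0.12, and none of the 5 was called.

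Among receptors of ubiquitin-marked cargo, Sqstm1, which gathers ubiquitinated protein and is itself degraded with it, had values of 5381, 5275, 5511 and 5132 in TAC+JP2NT hearts and 6719, 6429, 5741 and 6319.9 in TAC+GFP hearts, against 6473 and 6041 in Sham+JP2NT hearts and 5681, 5925 and 5902 in Sham+GFP hearts. The TAC+JP2NT values were the lowest 4 of all 13, and the TAC+GFP values overlapped the shams. Sqstm1 was 1.18-fold lower in TAC+JP2NT hearts than in TAC+GFP hearts (log2 fold change -0.24, SE 0.06, adjusted p = 0.0266) and fell against Sham+JP2NT hearts (-0.23, SE 0.07, adjusted p = 0.0232). In TAC+GFP against Sham+GFP hearts its log2 fold change was 0.11, 95% interval -0.03 to 0.24, adjusted p = 0.168. The interaction for Sqstm1 was -0.34, 95% interval -0.54 to -0.14, adjusted p = 0.184, and was not called. Without TAC+JP2NT replicate 4 the log2 fold change between the TAC groups was -0.22 (adjusted p = 0.0491). The call between the TAC groups was lost without TAC+JP2NT replicate 2 or TAC+GFP replicate 1 or 2, with replicates 1 and 2 of each TAC group averaged, with array weights per group and in a fit of the compared groups alone (adjusted p = 0.0533 to 0.138), and the call under JP2NT without Sham+JP2NT replicate 3 and in a fit of the compared groups alone (adjusted p = 0.0612 to 0.0811). Exons of Mrnip on the opposite strand overlap those of Sqstm1, and whether the counting used strand is not given in the sources used here.

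Calcoco1, a receptor for endoplasmic reticulum and Golgi membrane, had values of 1189, 1250.3, 1311 and 1706 in TAC+JP2NT hearts and 1341, 1366, 1241 and 1349 in TAC+GFP hearts, against 2339 and 2116 in Sham+JP2NT hearts and 1882, 2076 and 2124 in Sham+GFP hearts. TAC was below sham in every sample. The falls were -0.72 (SE 0.11, adjusted p = 0.000475) under JP2NT and -0.61 (SE 0.10, adjusted p = 0.000202) under GFP on the log2 scale. Without TAC+JP2NT replicate 4 the fall under JP2NT was -0.82 (adjusted p = 4.88e-06). Nbr1, a partner of Sqstm1 on ubiquitinated cargo, had values of 1567, 1606, 1923 and 1957 in TAC+JP2NT hearts and 1704, 1681, 1532 and 1633 in TAC+GFP hearts, against 2095 and 2088 in Sham+JP2NT hearts and 1982, 2010.3 and 2070.2 in Sham+GFP hearts. It was lower in every TAC sample than in any sham, and fell by 0.25 under JP2NT (adjusted p = 0.0428) and by 0.30 under GFP (adjusted p = 0.00552) on the log2 scale. The Nbr1 call under JP2NT was lost in 14 of 25 alternatives, at adjusted p-values up to 0.205. Tax1bp1, a receptor that acts beside Nbr1, rose under GFP by 0.20 on the log2 scale (adjusted p = 0.0183), a call lost without Sham+GFP replicate 2 (adjusted p = 0.106). Optn, the receptor optineurin that also serves mitophagy, was called in no comparison, with log2 fold changes of 0.15 under JP2NT and 0.09 under GFP.

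The mitophagy genes moved in opposite directions: the receptors Bnip3 and Bnip3l, which sit in the outer mitochondrial membrane and bind ATG8 proteins directly, rose, and Pink1, the kinase that marks damaged mitochondria for the Parkin route, fell. Bnip3 (chr7:138890836-138909519, minus strand, mm10) had normalised values of 4054, 3069, 3261 and 3440.4 in TAC+JP2NT hearts and 5009, 5559, 8400.0 and 4597 in TAC+GFP hearts, against 2411 and 2503 in Sham+JP2NT hearts and 2706, 2563 and 2559.6 in Sham+GFP hearts. As with Wipi1, the groups did not overlap and ran TAC+GFP above TAC+JP2NT above the shams, and TAC+GFP replicate 3, at 8400.0, was the highest. Bnip3 was 1.4-fold higher in TAC+JP2NT than in Sham+JP2NT hearts (log2 fold change 0.48, SE 0.17, adjusted p = 0.0458) and 2.19-fold higher in TAC+GFP than in Sham+GFP hearts (1.13, SE 0.15, adjusted p = 4.01e-05). In TAC+JP2NT hearts it was 1.67-fold lower than in TAC+GFP hearts (-0.74, SE 0.14, adjusted p = 0.00929), and the interaction was -0.65, 95% interval -1.15 to -0.15, adjusted p = 0.304. The rise under JP2NT was lost without TAC+JP2NT replicate 1, TAC+GFP replicate 2, Sham+JP2NT replicate 3 or Sham+GFP replicate 1, 2 or 3, with no filter on low values and with replicates 1 and 2 of each TAC group averaged (adjusted p = 0.0513 to 0.14), and the call between the TAC groups in a fit of the compared groups alone (adjusted p = 0.0569). Exons of Gm45507 on the opposite strand overlap those of Bnip3.

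Bnip3l, which is also needed to clear mitochondria from maturing red cells, spanned 866 to 966 in TAC+JP2NT hearts and 909 to 1106 in TAC+GFP hearts, against 744 to 794 in Sham+JP2NT and 706 to 767 in Sham+GFP hearts. It rose by 0.25 under JP2NT (adjusted p = 0.0352) and by 0.47 under GFP (adjusted p = 0.000141) on the log2 scale. Every TAC value was above every sham value, and the call under JP2NT was lost without TAC+JP2NT replicate 1 or 2 or Sham+JP2NT replicate 3 and in a fit of the compared groups alone (adjusted p = 0.06 to 0.2). Erythroid markers moved the same way. Of 4 tested, 1 was called higher under JP2NT and 3 under GFP, none of the 5 listed was at 0 in all samples, and their sum was 7825 to 18720 in TAC+JP2NT hearts and 15960 to 22150 in TAC+GFP hearts, against 8659 to 9961 in Sham+JP2NT and 6865 to 8481 in Sham+GFP hearts. Their part in the Bnip3l result was not tested.

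Pink1 had normalised values of 5688, 5630.1, 5824 and 7503 in TAC+JP2NT hearts and 6029.5, 5653, 6997 and 6482 in TAC+GFP hearts, against 10969 and 10008 in Sham+JP2NT hearts and 8593, 9803 and 9802 in Sham+GFP hearts. All 8 TAC values were below all 5 sham values, and TAC+JP2NT replicate 4 was the highest of the TAC values. The fall was 1.71-fold under JP2NT (log2 fold change -0.78, SE 0.12, adjusted p = 0.000313) and 1.5-fold under GFP (-0.58, SE 0.10, adjusted p = 0.000341), and both calls held in all 25 alternatives. Without TAC+JP2NT replicate 4 the log2 fold change under JP2NT was -0.86 (adjusted p = 1.08e-05). TAC+JP2NT and TAC+GFP hearts differed by a log2 fold change of -0.04, 95% interval -0.24 to 0.17, adjusted p = 0.869. Fundc1, a further mitochondrial receptor, was called in no comparison, with log2 fold changes of -0.11 under JP2NT and -0.14 under GFP.

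Retreg1, the membrane-curving receptor that carries sheets of endoplasmic reticulum into autophagosomes (chr15:25843180-25973687, plus strand, mm10), was the gene whose overload response differed between the vectors. Its normalised values were 2763, 2666, 3072 and 3287 in TAC+JP2NT hearts and 4807, 5435, 4004 and 4396 in TAC+GFP hearts, against 4133 and 3779 in Sham+JP2NT hearts and 3056, 3393 and 3612 in Sham+GFP hearts. Means were 2947 ± 285 in TAC+JP2NT hearts and 4660.5 ± 612 in TAC+GFP hearts (SD, n = 4 each), against 3956 ± 249.8 in Sham+JP2NT (n = 2) and 3354 ± 280.1 in Sham+GFP hearts (n = 3). All TAC+JP2NT values were below all Sham+JP2NT values, and all TAC+GFP values were above all Sham+GFP values. The log2 fold change with overload was -0.43, SE 0.11, adjusted p = 0.0115 under JP2NT and 0.47, SE 0.10, adjusted p = 0.00157 under GFP. The difference of these, the interaction, was -0.90, 95% interval -1.22 to -0.57, adjusted p = 0.0475, and it was called in 14 of 24 alternatives with adjusted p-values of 0.00888 to 0.199. It was lost without TAC+JP2NT replicate 1 or 2, TAC+GFP replicate 1 or 2, Sham+JP2NT replicate 3 or Sham+GFP replicate 1, 2 or 3, with no filter on low values and with replicates 1 and 2 of each TAC group averaged (adjusted p = 0.072 to 0.199). Under overload itself Retreg1 was 1.58-fold lower with JP2NT than with GFP (-0.66, SE 0.09, adjusted p = 0.00241), a call that held in all 25 alternatives. Without TAC+JP2NT replicate 4 that log2 fold change was -0.70 (adjusted p = 0.00191) and the interaction was -0.94 (adjusted p = 0.0355). In shams it ran the other way without a call: 0.24, 95% interval -0.02 to 0.50, adjusted p = 0.997 for Sham+JP2NT against Sham+GFP. The fall under JP2NT was lost without Sham+JP2NT replicate 3 (adjusted p = 0.0515).

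Of the 36 genes, 29 had a promoter in the RefSeq table (GRCm38.p6), in 37 windows of 300 bases around annotated starts. The E-box CACGTG, read on both strands, lay in 6 windows (16.2%), those of Atg14, Atg3, Atg5, Atg7, Bnip3 and Retreg1, beside 7.15% of all 32851 windows. Its extended form TCACGTG, the core of the element bound by TFEB and TFE3, lay in 4 (10.8%, beside 3.77%), and TGTTTAC, a FOXO core, in 0 (beside 3.65%). ACGTG, the core of the hypoxia response element, which every CACGTG also contains, lay in 13 windows (35.1%, beside 19.6%). Of the 6 genes lower in TAC+JP2NT hearts than in TAC+GFP hearts, Bnip3 and Retreg1 hold CACGTG, and their windows upstream of the start are shown because they carry the largest of these differences. Retreg1 has 4 annotated start windows, and the 2 shown are those with a match, both inside the gene. The table holds 1 value per gene, so which start was used cannot be read from it. Capitals mark ACGTG on either strand, and sequences run 5′ to 3′ on the strand of the gene.
Bnip3, chr7:138909520-138909756, minus strand: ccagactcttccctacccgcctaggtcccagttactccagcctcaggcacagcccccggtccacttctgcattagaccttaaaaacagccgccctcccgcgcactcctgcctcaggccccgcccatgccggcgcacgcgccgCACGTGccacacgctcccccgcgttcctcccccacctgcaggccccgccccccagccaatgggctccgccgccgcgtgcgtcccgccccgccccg
Retreg1, chr15:25940452-25940701, plus strand: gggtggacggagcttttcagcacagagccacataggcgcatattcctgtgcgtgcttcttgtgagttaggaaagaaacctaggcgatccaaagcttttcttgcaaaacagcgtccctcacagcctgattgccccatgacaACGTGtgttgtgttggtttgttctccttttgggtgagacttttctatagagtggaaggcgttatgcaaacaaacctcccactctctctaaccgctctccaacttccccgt
Retreg1, chr15:25942429-25942678, plus strand: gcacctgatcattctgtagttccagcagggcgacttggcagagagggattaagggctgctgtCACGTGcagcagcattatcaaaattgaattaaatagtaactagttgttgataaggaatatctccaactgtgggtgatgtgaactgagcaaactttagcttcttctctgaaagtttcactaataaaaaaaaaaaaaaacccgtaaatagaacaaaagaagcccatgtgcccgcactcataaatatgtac
Counted from the annotated start, the CACGTG begins at -108 in Bnip3 and at -188 in the last window of Retreg1. Members with CACGTG did not share a direction. In TAC+GFP against Sham+GFP hearts Bnip3, Retreg1 and Atg5 rose, Atg14 and Atg7 fell, and Atg3 was not called.

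Tfeb and Tfe3, the transcription factors that drive many autophagy and lysosome genes and are controlled mainly by their entry into the nucleus, were lower under overload. Tfeb had values of 322, 322, 286 and 372 in TAC+JP2NT hearts and 367, 333, 300.4 and 353 in TAC+GFP hearts, against 436 and 400.3 in Sham+JP2NT hearts and 437, 426 and 396 in Sham+GFP hearts. Tfe3 had values of 230.3, 233, 209 and 208 in TAC+JP2NT hearts and 226, 205, 199 and 197 in TAC+GFP hearts, against 254 and 278 in Sham+JP2NT hearts and 275, 242 and 235 in Sham+GFP hearts. For both genes every TAC value lay below every sham value. Tfeb fell by 0.36 under JP2NT (adjusted p = 0.0193) and by 0.31 under GFP (adjusted p = 0.0141) on the log2 scale. Tfe3 fell by 0.28 under GFP (adjusted p = 0.0206), and under JP2NT its log2 fold change was -0.27, 95% interval -0.49 to -0.05, adjusted p = 0.0545. The Tfeb call was lost under JP2NT without TAC+JP2NT replicate 3 or Sham+JP2NT replicate 3 and in a fit of the compared groups alone (adjusted p = 0.0503 to 0.0748) and under GFP without Sham+GFP replicate 1 (adjusted p = 0.0641), and the Tfe3 call without Sham+GFP replicate 1 (adjusted p = 0.128).

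**Figure D4:**
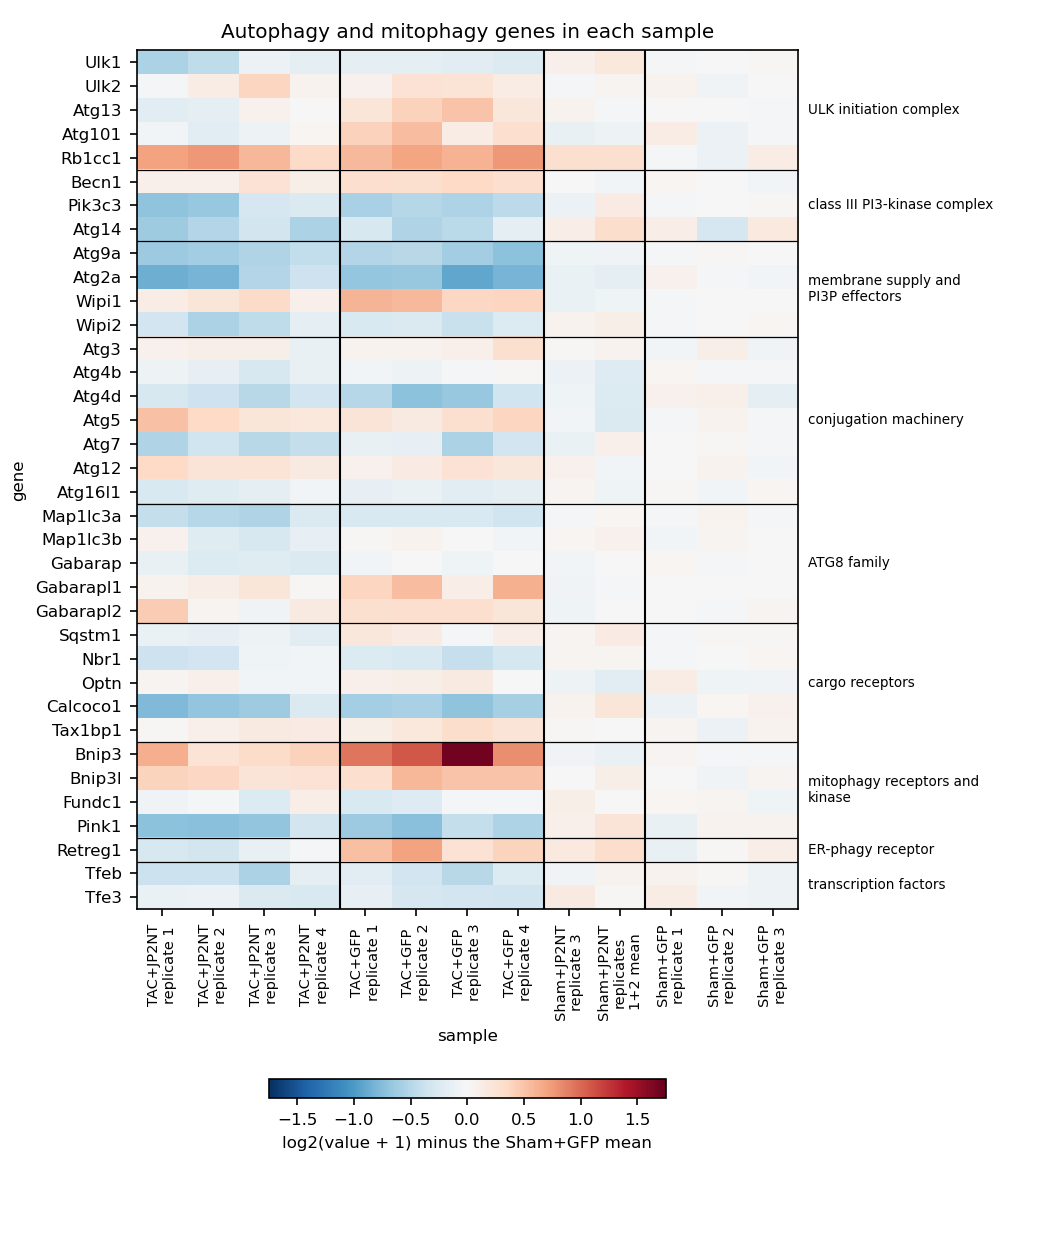
Log2(value + 1) of the 36 genes in the 13 samples minus the Sham+GFP mean of each gene, grouped by role (rows) and by group (columns); red is higher and blue lower. The TAC columns show red and blue rows side by side, Rb1cc1, Bnip3 and Bnip3l among the red and Pik3c3, Atg2a, Calcoco1 and Pink1 among the blue, and TAC+JP2NT replicate 4 is paler than its group in many rows.

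For 14 of the 21 genes called under JP2NT, TAC+JP2NT replicate 4 was the TAC+JP2NT sample nearest to the Sham+JP2NT mean, at a median distance of 0.266 on the log2 scale, beside 0.371 to 0.509 for the other 3. Leaving it out gave 20 called genes, 6 higher and 14 lower, beside 4969 of all genes in place of 4243. In TAC+GFP hearts the nearest sample was spread evenly, 5 to 7 genes for each of the 4 samples. The most variable member was Calcoco1 in TAC+JP2NT hearts, with a coefficient of variation of 17.1%, and Bnip3 in TAC+GFP hearts, with 29.2%. Without Sham+JP2NT replicate 3, calls under JP2NT were lost among the members and among all genes. That setting leaves 1 Sham+JP2NT sample, the mean of replicates 1 and 2, which is assumed to vary like the other groups, so a loss of calls there also comes with a smaller group. With the JP2NT groups alone in the fit 13 genes of the 36 were called, 3 higher and 10 lower. Of all genes 3092 were called there, 1471 higher and 1621 lower.

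The wider pathway was read from 63 further genes, of which 61 were tested. In TAC+JP2NT against Sham+JP2NT hearts 4 rose and 21 fell, which is 41% called beside 32.2% of all genes. In TAC+GFP against Sham+GFP hearts 9 rose and 21 fell, which is 49.2% beside 48.3%. In TAC+JP2NT against TAC+GFP hearts 5 were called, all lower with JP2NT, which is 8.2% beside 6.21%. Calls of these further genes were not checked in the alternatives, which were read gene by gene for the members alone. Among 16 other core genes, Pik3r4, the regulatory subunit that holds Pik3c3, fell with it, by 0.71 on the log2 scale under JP2NT (adjusted p = 0.00209) and by 0.66 under GFP (adjusted p = 0.000603). Tmem41b, a lipid scramblase of the endoplasmic reticulum, fell by 0.33 under JP2NT and 0.43 under GFP (adjusted p = 0.00868 and 0.000264). Atg2b, the paralog of Atg2a, fell under GFP (-0.30, adjusted p = 0.0151), and under JP2NT its log2 fold change was -0.13, 95% interval -0.36 to 0.09, adjusted p = 0.368. Of 12 genes that fuse autophagosomes with lysosomes, 7 fell under JP2NT, which is 58.3% called beside 32.2% of all genes. Under GFP 4 fell and 1 rose, which is 41.7% beside 48.3%. Vps18, Vps33a and Rab7, parts of the tethering machinery, fell under both vectors, by 0.40, 0.49 and 0.25 on the log2 scale under JP2NT (adjusted p = 0.00768, 0.0015 and 0.0299) and by 0.52, 0.50 and 0.39 under GFP (adjusted p = 0.000241, 0.000193 and 0.00052). Vamp8, a SNARE of that fusion, was lower in TAC+JP2NT hearts than in TAC+GFP hearts (-0.30, SE 0.07, adjusted p = 0.0202).

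Of 13 further mitophagy and ER-phagy genes tested, Atl3, an ER-phagy receptor, rose by 0.51 under JP2NT and 0.68 under GFP (adjusted p = 0.00202 and 3.13e-05). Mul1, a mitochondrial ubiquitin ligase, fell by 0.41 under JP2NT and 0.60 under GFP, and Bcl2l13, a mitophagy receptor, by 0.38 under JP2NT and 0.50 under GFP, with adjusted p-values of at most 0.00221. Fkbp8, also a mitophagy receptor, was lower in TAC+JP2NT hearts than in TAC+GFP hearts (-0.22, SE 0.06, adjusted p = 0.0358).

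Among 20 upstream regulators tested, Ddit4, Depp1 and Prkab2 had the largest changes under GFP. Ddit4, a stress-induced inhibitor of mTOR signalling, had values of 898, 871, 284 and 745 in TAC+JP2NT hearts and 1222, 1365, 857 and 649 in TAC+GFP hearts, against 156 and 180.5 in Sham+JP2NT hearts and 241, 209 and 168 in Sham+GFP hearts. TAC exceeded sham throughout, with a log2 fold change of 1.92, SE 0.38, adjusted p = 0.002 under JP2NT and 2.26, SE 0.33, adjusted p = 7.99e-05 under GFP. Depp1, a FOXO target linked to autophagy, had values of 658, 727, 419 and 940.5 in TAC+JP2NT hearts and 1887, 2521, 962 and 1002 in TAC+GFP hearts, against 335 and 416 in Sham+JP2NT hearts and 526, 463 and 437 in Sham+GFP hearts. No TAC+GFP value was as low as any TAC+JP2NT value. It rose under GFP (1.62, SE 0.30, adjusted p = 0.000494), had a log2 fold change of 0.82, 95% interval 0.09 to 1.55, adjusted p = 0.0799 under JP2NT, and was 2.22-fold lower in TAC+JP2NT hearts than in TAC+GFP hearts (-1.15, SE 0.28, adjusted p = 0.0266). Prkab2, a subunit of the energy sensor AMPK, which phosphorylates Ulk1, had values of 824, 829.8, 1117 and 692 in TAC+JP2NT hearts and 1617, 1987, 944 and 1570.0 in TAC+GFP hearts, against 596 and 561 in Sham+JP2NT hearts and 516, 500.2 and 593 in Sham+GFP hearts. The TAC+GFP and TAC+JP2NT values overlapped, and all of them were above the shams. It rose under GFP (1.46, SE 0.20, adjusted p = 3.71e-05) and was lower in TAC+JP2NT hearts than in TAC+GFP hearts (-0.79, SE 0.18, adjusted p = 0.0217). Prkag2, a further AMPK subunit, named after its values were seen as the last of the 5 genes called, had values of 433, 464, 506 and 496 in TAC+JP2NT hearts and 685, 647, 757 and 658 in TAC+GFP hearts, against 453 and 496 in Sham+JP2NT hearts and 439.9, 452 and 457 in Sham+GFP hearts. TAC+GFP stood above the other 3 groups, 0.61 above Sham+GFP on the log2 scale (adjusted p = 2.27e-05), and TAC+JP2NT was 1.45-fold lower than TAC+GFP (-0.53, SE 0.07, adjusted p = 0.00148). The interaction for Prkag2 was -0.61, 95% interval -0.85 to -0.36, adjusted p = 0.0883.

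**Figure D5:**
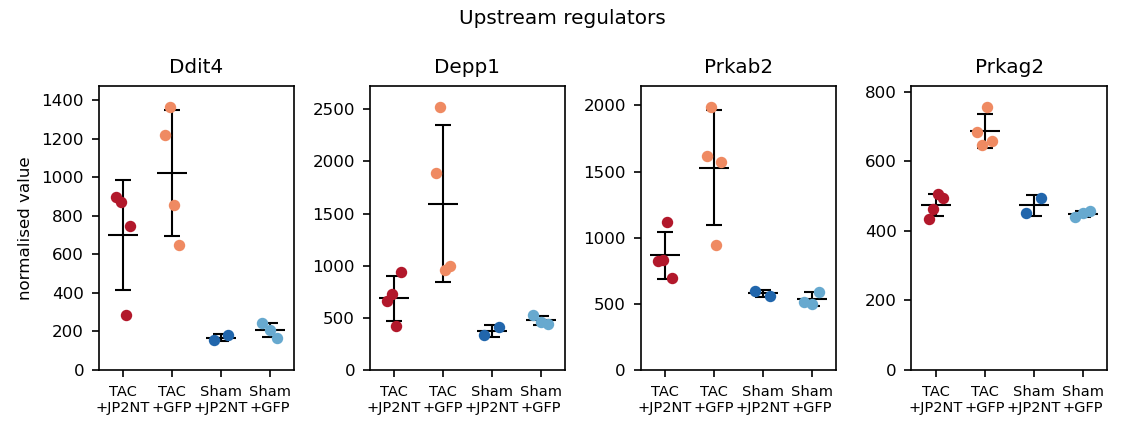
Normalised values of Ddit4, Depp1, Prkab2 and Prkag2, regulators upstream of the autophagy machinery, in each sample (points) with the group mean and SD (bars; n = 4, 4, 2 and 3). For Depp1 and Prkag2 the TAC+GFP points lie above all other points, while for Ddit4 and Prkab2 the TAC groups overlap each other.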

How the data were processed

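Ventricular RNA was enriched for polyadenylated transcripts and sequenced as stranded paired-end libraries. FastQC 1.0.0, STAR 2.6.1a, Salmon and mm10 are named in the submitters' processing notes. Which annotation and Salmon version were used, and whether counting used strand, is not given in the sources used here. Values were deposited as a signal, that is gene counts that the authors divided by scale factors set separately within the 7 GFP and the 7 JP2NT libraries, as equal median-of-ratios factors within each set show. They are not whole reads (1.11% to 2.85% of values within 0.001 of a whole number), so no count model was used. Depth was estimated from the commonest low value, taken as 1 read. Gene names turned into dates (26) were left out, and exons of other genes overlap those of 11 of the 36 members on the opposite strand and of 2 on the same strand.

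The values were rescaled jointly by unweighted trimmed means of M-values (30% of ratios and 5% of mean levels trimmed), and log2 of the value plus 1 was tested with limma-trend (limma 3.58.1, R 4.3.3) over 13191 genes that reached 10 in 3 or more samples, with 1 mean per group, 1 spread, and 9 residual and 5.7 prior degrees of freedom. Fold changes are on this log2(value + 1) scale. Tests were two-sided. Calls are at p under 0.05 after Benjamini-Hochberg adjustment over the genes of a comparison. Within-group spread was larger in TAC than in sham hearts, so 1 shared spread is too small for TAC hearts and too large for shams. Sham+JP2NT replicates 1 and 2 had a variance of 1.59 times counting noise over genes with at least 1000 reads (limit 2; other pairs 6.17 to 111) and were averaged. The labels do not say that each library is a separate mouse, so p-values measure the spread between these samples, which may be technical. The procedure was tested on simulated data. Figures were drawn with matplotlib 3.10.9 in Python 3.11.15.

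The 36 members, the lists of other genes and the markers were chosen with earlier results of these data known. Per-sample values are printed for members called in a vector comparison or the interaction and for up to 2 members per role with the largest called overload change; other members are given by ranges or fold changes. Of other pathway genes, up to 3 per list called under GFP and up to 2 called between the TAC groups are named. TAC+JP2NT against TAC+GFP shares samples with both overload comparisons. The alternatives covered scaling, pseudocount (0.5 and 10), filter (none and 50), near-identical libraries, samples in the fit, array weights, a replicate block and leaving out each library. Promoters are from RefSeq (GRCm38.p6) and gene positions from GENCODE M21. A planned comparison of protein sequences was not made.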

Additional observations from a re-analysis of the deposited data

Results flagged for a closer look

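The overload response of Retreg1 differed between the vectors: the log2 fold change under JP2NT minus that under GFP was -0.897 (limma, adjusted p = 0.0475), with all 4 TAC+JP2NT samples below both Sham+JP2NT samples and all 4 TAC+GFP samples above all 3 Sham+GFP samples. The call was close to the threshold and was lost in 10 of 24 alternatives, at adjusted p-values up to 0.199; 8 of those 10 left out 1 library.

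In 6 of the 72 sets formed by 1 gene and 1 TAC group of 4 samples, 1 sample lay far from the other 3 relative to the range of the set. Chance gives about 1 in 20 such sets. Pink1 was 7503 in TAC+JP2NT replicate 4, against 5630 to 5824 in the other TAC+JP2NT samples. Atg3 was 212.8 in TAC+JP2NT replicate 4, against 245.5 to 250.1 in the others of that group, and 281.4 in TAC+GFP replicate 4, against 241.4 to 246.5. Map1lc3a was 4735 in TAC+GFP replicate 4, against 5001 to 5014. Becn1 was 764.1 in TAC+JP2NT replicate 3, against 681.9 to 687.8, and Wipi2 was 535.9 in TAC+GFP replicate 3, against 582 to 591.3. Of these samples, 4 of 6 are replicate 4 of a TAC group.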

How the results depend on the processing

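Over 25 alternatives, 14 of which left out 1 library, no log2 fold change of the 36 genes that was called changed sign: of 4464 values set beside those of the report, 4311 kept their side of the threshold, 117 lost a call and 36 gained one. Of the called genes, 17 of 25 under GFP, 9 of 21 under JP2NT and 1 of 6 (Retreg1) between the TAC groups were called in every alternative. Leaving out 1 library gave 19 to 26 called of the 36 genes under GFP (5192 to 6679 of all genes), 10 to 22 under JP2NT (1860 to 4969), 3 to 8 between the TAC groups (268 to 1070), 0 to 0 between the sham groups (0 to 1) and 0 to 1 in the interaction (3 to 59).

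With only the compared groups in the fit, 13 of the 36 were called under JP2NT in place of 21 (3092 of all genes in place of 4243). Between the TAC groups 1 was called in place of 6 (172 of all genes in place of 819), and between the sham groups 1 of all genes in place of 0. With the values as deposited, scaled by the authors within each vector, 12 of the 36 were called between the TAC groups (1412 of all genes, 225 higher and 1187 lower, in place of 357 and 462). With replicates 1 and 2 of each TAC group averaged too, 2 of the 36 and 158 of all genes were called between the TAC groups, and 0 and 4 in the interaction. With array weights per group, 430 of all genes were called between the TAC groups and 77 in the interaction. In the interaction, 10 of all genes and 1 of the 36 were called in the analysis reported, 6 and 0 with no filter on low values, and 111 of all genes with 14 separate libraries. The cause of these shifts was not tested.

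With the replicate number as a block and 14 separate libraries, 24, 22, 7, 0 and 1 of the 36 were called under GFP, under JP2NT, between the TAC groups, between the sham groups and in the interaction. Of all genes 6573, 5533, 1024, 0 and 67 were called, in the same order. Over 19 same-numbered pairs, deviations from the group means correlated at -0.17 to 0.08, with 0 pairs over 0.1. No shared shift by replicate number was seen, but groups this small cannot exclude one. All 36 genes passed the filter on low values, which does not show how far depth limits the calls. The part of counting noise in the spread of the lower genes was not tested.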

Other observations

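The subunits of AMPK, the energy sensor that acts on Ulk1 and on mTOR signalling, did not move together. They were picked for this description after their values were seen. In TAC+GFP against Sham+GFP hearts Prkaa2, a catalytic subunit, and Prkab2 and Prkag2, regulatory subunits, rose. Prkab1 and Prkag1, the counterparts of these regulatory subunits, fell. Prkaa1, the counterpart of Prkaa2, is also on the list of upstream regulators and is not described here. Prkaa2 averaged 1959.6 ± 206 in TAC+JP2NT and 2075 ± 91.8 in TAC+GFP hearts (SD, n = 4 each), against 1527 ± 45.5 in Sham+JP2NT (n = 2) and 1402 ± 37.3 in Sham+GFP hearts (n = 3). It rose by 0.35 on the log2 scale under JP2NT (limma adjusted p = 0.00758) and by 0.56 under GFP (adjusted p = 4.32e-05). Prkab1 averaged 246 ± 15.2 in TAC+JP2NT and 267 ± 39.1 in TAC+GFP hearts, against 452 ± 58.0 in Sham+JP2NT and 419.8 ± 43.0 in Sham+GFP hearts. Its fall was the larger under JP2NT, -0.87 (adjusted p = 0.000289), beside -0.66 under GFP (adjusted p = 0.000293), with a difference between the responses of -0.22 (adjusted p = 0.685). Prkag1 fell by 0.31 under JP2NT and by 0.40 under GFP on the log2 scale (adjusted p = 0.0103 and 0.000456).

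Genes of mTOR signalling, which restrains autophagy when nutrients are plentiful, are among the 20 upstream regulators tested. Of these 20, 2 rose and 7 fell under JP2NT, which is 45% called beside 32.2% of all genes. Under GFP 6 rose and 9 fell, which is 75% beside 48.3%. The inhibitor Ddit4 is one of those that rose under both vectors. A further 3, Mtor, Rptor and Tsc2, were picked after their values were seen and fell under both. Rheb and Tsc1 are on the same list of upstream regulators and are not described here. Mtor, the kinase, fell by 0.41 under JP2NT and by 0.33 under GFP on the log2 scale (adjusted p = 0.0042 and 0.00322), Rptor, its partner in the complex that acts on Ulk1, by 0.41 under JP2NT and 0.51 under GFP (adjusted p = 0.0014 and 3.33e-05), and Tsc2, an inhibitor of the same complex, by 0.46 under JP2NT and 0.53 under GFP (adjusted p = 0.0011 and 5.03e-05). None of these 3 was called between the TAC groups. Trp53inp1, a stress-induced protein that binds ATG8 proteins, rose under GFP by 1.25 (adjusted p = 0.00026) and had a log2 fold change of 0.60, 95% interval 0.08 to 1.11, adjusted p = 0.0709 under JP2NT. Its relative Trp53inp2 fell under GFP by 0.48 (adjusted p = 0.000362) and had a log2 fold change of -0.13, 95% interval -0.34 to 0.08, adjusted p = 0.325 under JP2NT.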
